A study of Mus musculus with 4 samples.

Results

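The B7 co-stimulatory and inhibitory ligands were described here in bulk RNA sequencing of samples labelled as primary colonic eosinophils. The set held 10 genes, picked by symbol from a count table of 53819 gene symbols: the B7 family genes Cd80, Cd86, Cd274, Pdcd1lg2, Icosl, Cd276, Vtcn1 and Vsir, and 2 genes outside the family, the tetraspanin gene Cd9 and the galectin gene Lgals9. All 10 were in the table and all 10 passed the filter on low counts, among 18788 genes tested. One group of wild-type (WT) C57Bl/6 mice was treated with 3% dextran sulfate sodium (DSS), which damages the lining of the colon and is used to model colitis, and the control group received water. Each group had 2 libraries. The titles carry the tag D6 in both groups, and the labels do not spell it out. Age, sex, the sorting of the cells and whether a library came from 1 mouse or several are not given in the sources used here.

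B7 ligands are surface proteins that antigen-presenting cells and other cells show to T cells, and they set how a T cell responds when its antigen receptor is engaged. CD80 and CD86 bind the activating receptor CD28 and the inhibitory receptor CTLA-4, PD-L1 (Cd274) and PD-L2 (Pdcd1lg2) bind the inhibitory receptor PD-1, and ICOSL (Icosl) binds ICOS. CD80 and PD-L1 are also known as surface markers of activated eosinophils of the mouse intestine.

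The samples held markers of several cell types, and the eosinophil markers examined summed to less than the epithelial markers in every library. Such sums do not measure the share of a cell type. Levels are given in CPM, reads scaled to library totals that were adjusted by the TMM method, and means as mean ± SD over 2 libraries. Total counts ran from 30985905 to 34126329 per library. Of the 9 eosinophil markers examined (Siglecf, Ccr3, Il5ra, Epx, Prg2, Ear1, Ear2, Ear6 and Alox15), the summed level was 94.3 and 352 CPM in DSS and 7.85 and 72.9 CPM in water, and the peroxidase gene Epx had 0 and 12 reads in DSS and 0 and 14 in water. Alox15 alone had 43.4 and 224.7 CPM in DSS and 4.24 and 43.5 CPM in water, and it overlapped between the groups, as Siglecf did. The 8 epithelial markers summed to 3268 and 8035 CPM in DSS and 8239 and 6082 CPM in water. Ptprc, which encodes the pan-leukocyte protein CD45, had 469 and 319 CPM in DSS replicates 1 and 2, and 71.0 and 217 CPM in water replicates 1 and 2, so water replicate 1 stood apart with the least leukocyte and eosinophil RNA. DSS replicate 1 stood apart in plasma cell RNA: immunoglobulin genes took 29.0% of its reads, against 7.61% in DSS replicate 2 and 7.21% and 6.18% in water, and the 6 plasma cell markers summed to 36540 and 7681 CPM in DSS and 7100 and 6093 CPM in water, with no marker at 0 in any library. In bulk RNA, more cells of a type and more RNA of a gene per cell cannot be told apart.

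Cd274, Cd80 and Pdcd1lg2 had the largest positive differences of the 10 genes, with DSS means 3.15, 2.91 and 2.76 times the water means, and Lgals9 and Cd276 stood lower in both DSS libraries. None of the 10 passed edgeR's quasi-likelihood test at a Benjamini-Hochberg adjusted p of 0.05 over all genes, a test that called 0.016% of all genes tested. The lowest adjusted p among the 10 was 0.549, and 3 had an unadjusted p under 0.05 (Cd80, Cd274 and Lgals9), against 8.45% of all genes. DESeq2 also called 0 of the 10, and 2.53% of all genes. Both DSS libraries were above both water libraries for Cd80, Cd274, Pdcd1lg2 and Vsir, 4 of 10 against 20.8% of all genes, and below them for Cd276 and Lgals9, 2 of 10 against 18.7%. The median log2 fold change was 0.46 for the 10 genes and -0.01 for all genes tested, and that of the 10 was 0.18 without DSS replicate 1, 0.75 without DSS replicate 2, 0.30 without water replicate 1 and 1.00 without water replicate 2. For any 1 gene, exact permutation of 2 libraries against 2 gives a two-sided p of 0.333 at the lowest.

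**Figure D1:**
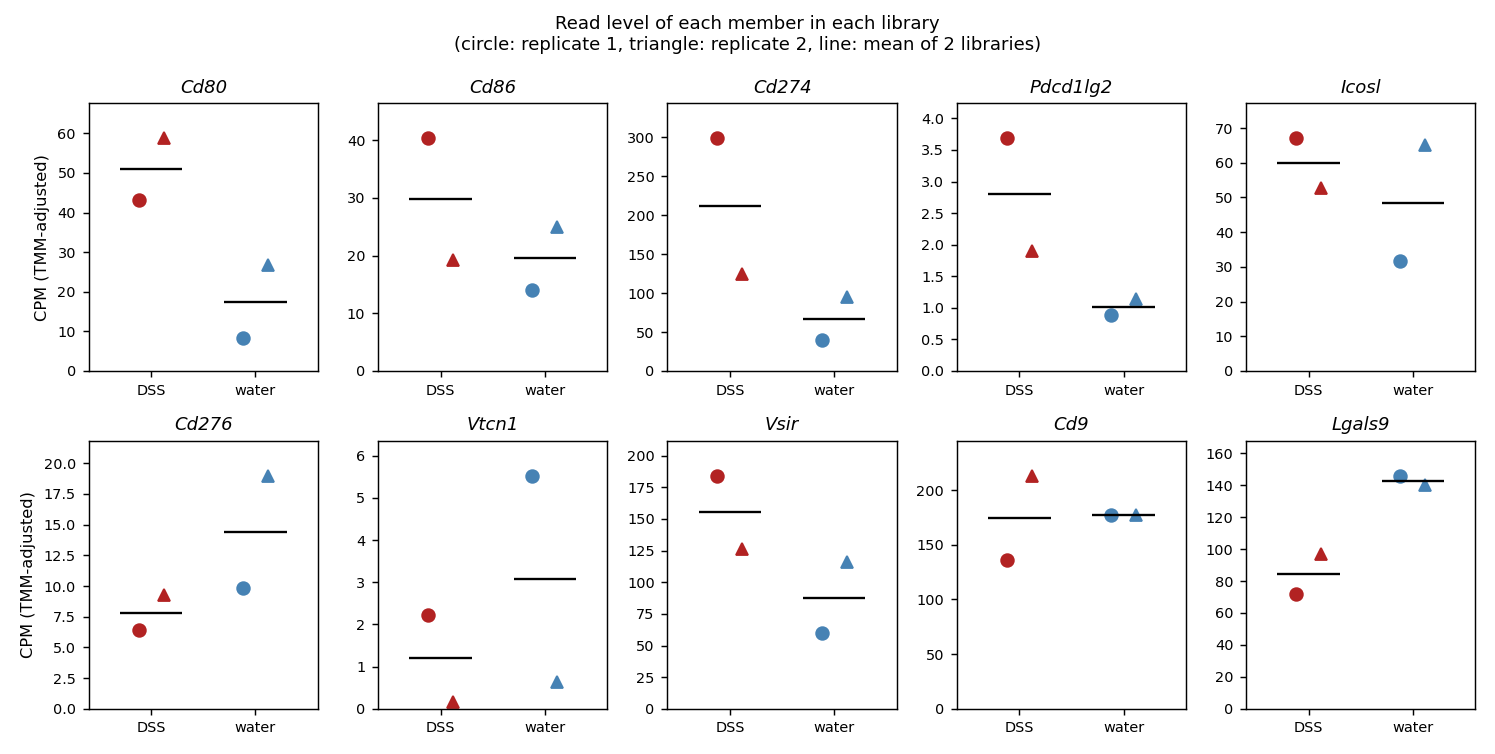
Level of each of the 10 genes in CPM on a linear axis from 0 that differs between panels, with DSS libraries in red and water libraries in blue, a circle for replicate 1, a triangle for replicate 2 and a line at the mean of 2 libraries. Both DSS points lie above both water points for Cd80, Cd274, Pdcd1lg2 and Vsir, and below them for Cd276 and Lgals9.

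PD-L1, encoded by Cd274, binds PD-1 on T cells and dampens their response. Cd274 lies on chromosome 19 (29367455 to 29388095, plus strand, GRCm38, GENCODE vM21) and had 8032 and 4395 reads in DSS replicates 1 and 2, against 1326 and 3261 reads in water replicates 1 and 2. On the CPM scale these were 299 and 125 in DSS and 39.3 and 95.2 in water. Both DSS libraries were above both water libraries, the lower DSS library by 1.31-fold over the higher water library, while libraries of 1 group differed by 2.39-fold in DSS and 2.42-fold in water. The mean was 212 ± 123 CPM in DSS and 67.3 ± 39.5 CPM in water (SD, n = 2 each), a log2 fold change of 1.66 (SE 0.60, edgeR adjusted p = 0.550, DESeq2 adjusted p = 0.0645). The edgeR log2 fold change was 0.88 without DSS replicate 1, 2.15 without DSS replicate 2, 1.12 without water replicate 1 and 2.44 without water replicate 2. It was called by edgeR when no count filter was applied (adjusted p = 0.00402), and by DESeq2 without DSS replicate 2 (adjusted p = 0.00765) or without water replicate 2 (adjusted p = 0.00285). An antisense gene, AC119228.1, covers 14.1% of the exonic bases of Cd274, and reads were not separable by strand. That symbol was not in the count table. Genes on the opposite strand also cover exonic bases of Cd276 (Gm10657, 11.4%) and Cd9 (Gm26728, 10.7%).

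PD-L2, encoded by Pdcd1lg2, is the second PD-1 ligand and also binds RGMb. Pdcd1lg2 is the neighbour of Cd274 on chromosome 19 (29410919 to 29471161, plus strand). It was scarce, with 99 and 67 reads in DSS and 30 and 39 reads in water. That amounts to 3.68 and 1.91 CPM in DSS and 0.889 and 1.14 CPM in water, with both DSS libraries above both water libraries. The exact 95% Poisson interval of the lower DSS count (51.9 to 85.1) overlapped that of the higher water count (27.7 to 53.3). The log2 fold change was 1.46 (SE 0.66, edgeR adjusted p = 0.648), and 0.90 without DSS replicate 1. The antisense gene A930007I19Rik lies across part of Pdcd1lg2 without sharing exonic bases, and had 80 and 74 reads in DSS and 25 and 42 in water. Per kilobase of exon, Cd274 exceeded Pdcd1lg2 by 43.9 and 35.5 times in DSS and by 23.9 and 45.3 times in water, so the ratio of these PD-1 ligands overlapped between the groups.

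CD80 and CD86 are the classical co-stimulatory ligands of CD28 and CTLA-4, and both bind CTLA-4 more tightly than CD28. Cd80 (chromosome 16, 38455561 to 38496335, plus strand) had 1161 and 2064 reads in DSS replicates 1 and 2, and 280 and 914 reads in water replicates 1 and 2. Its level was 43.2 and 58.7 CPM in DSS and 8.30 and 26.7 CPM in water. Both DSS libraries were above both water libraries, and water replicate 1 was the lowest library. Cd80 averaged 51.0 ± 10.98 CPM in DSS and 17.5 ± 13.0 CPM in water (SD, n = 2 each), a log2 fold change of 1.54 (SE 0.55, edgeR adjusted p = 0.549, DESeq2 adjusted p = 0.115). Water replicate 1 carried much of that value: the log2 fold change was 0.90 without it, against 2.63 without water replicate 2 (edgeR adjusted p = 0.0452, a call; DESeq2 adjusted p = 0.000163). Without a count filter edgeR called Cd80 with all libraries (adjusted p = 0.000749).

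Cd86 lies on the same chromosome (36603869 to 36666081, minus strand) and behaved otherwise. It had 1083 and 676 reads in DSS and 476 and 855 reads in water, or 40.3 and 19.2 CPM in DSS and 14.1 and 24.97 CPM in water. The groups overlapped, since DSS replicate 2 lay below water replicate 2. The log2 fold change was 0.61 (SE 0.46, edgeR adjusted p = 0.794), and -0.04 without DSS replicate 1. Per kilobase of exon, the ratio of Cd80 to Cd86 was 1.06 and 3.02 in DSS and 0.582 and 1.06 in water. Water replicate 2 and DSS replicate 1 had nearly the same ratio, and DSS replicate 2 had the highest.

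ICOSL and VISTA (Vsir) had smaller positive differences. ICOSL binds ICOS and supports activated and follicular helper T cells. Icosl (chromosome 10, 78069302 to 78083913, plus strand) had 67.1 and 52.7 CPM in DSS and 31.8 and 65.1 CPM in water, and the groups overlapped. Its log2 fold change was 0.30 (SE 0.39, edgeR adjusted p = 0.889), and -0.16 without water replicate 1. VISTA is an inhibitory protein carried mainly by myeloid cells. Vsir (chromosome 10, 60346851 to 60372684, plus strand) had 184 and 127 CPM in DSS and 59.6 and 116 CPM in water, with the lower DSS library 1.09-fold above the higher water library. Its log2 fold change was 0.82 (SE 0.42, edgeR adjusted p = 0.685), and 0.38 without water replicate 1. Vsir lies within the body of Cdh23 on the opposite strand, with no shared exonic base; Cdh23 had 450 and 265 reads in DSS and 170 and 238 in water, against 4939 and 4447 reads of Vsir in DSS and 2009 and 3968 in water.

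B7-H3 (Cd276) and B7-H4 (Vtcn1) are B7 proteins found on many cells outside the blood lineage, B7-H4 on epithelium in particular. Cd276 (chromosome 9, 58524298 to 58555437, minus strand) had 6.40 and 9.25 CPM in DSS and 9.84 and 19.0 CPM in water. Both DSS libraries were below both water libraries, by a gap of 1.06-fold. The log2 fold change was -0.88 (SE 0.44, edgeR adjusted p = 0.676), and -0.32 without water replicate 2. Vtcn1 (chromosome 3, 100825459 to 100896922, plus strand) had 60 and 6 reads in DSS replicates 1 and 2 and 186 and 22 reads in water replicates 1 and 2. It was higher in replicate 1 of each group, by 13.1-fold in DSS and 8.58-fold in water on the CPM scale. Its log2 fold change of -1.37 (SE 1.37, edgeR adjusted p = 0.855) turned to 0.85 when water replicate 1 was left out, and was -4.13 with DSS replicate 1 left out, so no direction could be read from these libraries.

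CD9 is a tetraspanin that organises other membrane proteins, and galectin-9 (Lgals9) is a sugar-binding protein known as a ligand of the T cell receptor TIM-3. Cd9 (chromosome 6, 125460266 to 125494791, minus strand) had 136.0 and 213 CPM in DSS and 177.4 and 177.5 CPM in water. The DSS libraries lay on either side of the water libraries, and the log2 fold change was -0.03 (SE 0.35, edgeR adjusted p = 0.995), or 0.25 without DSS replicate 1. Lgals9 (chromosome 11, 78962974 to 78984946, minus strand) was covered by 1934 and 3395 reads in DSS and 4911 and 4797 reads in water. Its level was 72.0 and 96.6 CPM in DSS and 145.6 and 140.1 CPM in water, so both DSS libraries were below both water libraries by at least 1.45-fold. Lgals9 averaged 84.3 ± 17.4 CPM in DSS and 143 ± 3.88 CPM in water (SD, n = 2 each), a log2 fold change of -0.76 (SE 0.30, edgeR adjusted p = 0.576, unadjusted p = 0.0453). It ranged only from -0.99 to -0.57 when each library was left out, the narrowest such range among Cd80, Cd274, Pdcd1lg2, Vsir, Cd276 and Lgals9, whose groups did not overlap. The epithelial markers summed to 3268 and 8035 CPM in DSS replicates 1 and 2 and to 8239 and 6082 CPM in water replicates 1 and 2. DSS replicate 1 was the lowest library for both that sum and Lgals9. The part of epithelial RNA in the level of Lgals9 was not tested.

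**Figure D2:**
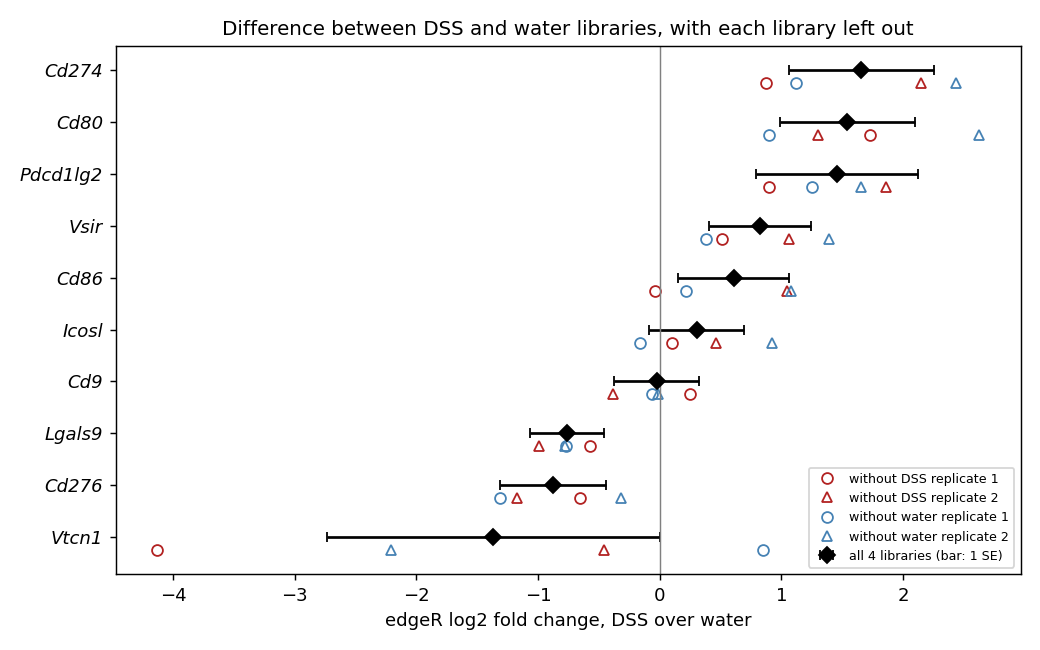
Log2 fold change of DSS over water from edgeR for each of the 10 genes (diamond, with a bar of 1 SE), and the same value with 1 library left out (open symbols). Cd274 runs from 0.88 to 2.44 and Lgals9 from -0.99 to -0.57, while Cd86, Icosl, Cd9 and Vtcn1 have values on both sides of 0.

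Upstream sequence of 3 of these genes is shown because Cd274 and Cd80 had the largest positive differences and Lgals9 the most even negative one. Each line gives the 250 bases before the RefSeq gene start (GRCm38.p6), 5′ to 3′ on the gene's strand, with bases that match a searched motif in capitals.
Cd274 (chr19:29367188-29367437, plus strand): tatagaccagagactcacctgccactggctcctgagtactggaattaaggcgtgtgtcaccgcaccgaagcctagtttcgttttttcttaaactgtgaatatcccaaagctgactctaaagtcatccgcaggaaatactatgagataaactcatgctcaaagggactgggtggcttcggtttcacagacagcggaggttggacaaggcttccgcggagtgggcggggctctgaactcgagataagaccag
Cd80 (chr16:38458683-38458932, plus strand): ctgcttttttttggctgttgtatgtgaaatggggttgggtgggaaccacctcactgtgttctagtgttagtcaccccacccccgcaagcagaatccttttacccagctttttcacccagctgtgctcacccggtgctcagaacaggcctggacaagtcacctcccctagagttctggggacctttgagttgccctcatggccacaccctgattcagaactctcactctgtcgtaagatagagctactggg
Lgals9 (chr11:78984925-78985174, minus strand): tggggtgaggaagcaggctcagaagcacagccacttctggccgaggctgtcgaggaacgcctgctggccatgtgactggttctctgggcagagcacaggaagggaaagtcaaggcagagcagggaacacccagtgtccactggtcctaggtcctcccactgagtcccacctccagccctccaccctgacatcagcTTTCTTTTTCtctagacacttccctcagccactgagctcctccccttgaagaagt

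A promoter entry was matched for 9 of the 10 genes, all but Cd86. The motifs searched on both strands were an interferon-stimulated response element (GAAA, any 2 bases, GAAA), a STAT site (TTC, any 3 bases, GAA) and a kappa-B site (GGGA, any base, TTTCC). Of 32851 promoter windows of 250 bases, 2.98%, 7.02% and 0.356% held these motifs in the order given. Among the 9 windows there was 1 match, the interferon-type motif in Lgals9 in its reverse orientation, 55 to 46 bases before the start. The other 8 windows did not hold these letters. The RefSeq starts of Cd80, Lgals9, Icosl, Cd276 and Cd9 lie inside the GENCODE gene bodies, downstream of the GENCODE starts.

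Length-corrected levels allowed the genes to be ranked against each other, as RPKM (reads per kilobase of merged exons, on the CPM scale). In DSS the order of means was Cd9 (85.3 ± 26.5), Cd274 (58.5 ± 33.9), Lgals9 (39.5 ± 8.15), Vsir (30.95 ± 8.07), Cd80 (13.8 ± 2.97), Icosl (13.0 ± 2.19), Cd86 (8.13 ± 4.07), Cd276 (2.14 ± 0.551), Pdcd1lg2 (1.43 ± 0.641) and Vtcn1 (0.458 ± 0.556 RPKM; SD, n = 2). Neighbours in that order overlapped in range from Cd9 through Vsir, between Cd80 and Icosl, and between Cd276 and Pdcd1lg2. In water the order began with Cd9 (86.8 ± 0.0380) and Lgals9 (66.8 ± 1.82), followed by Cd274 (18.6 ± 10.9), Vsir (17.5 ± 7.94) and Icosl (10.5 ± 5.10 RPKM). Cd86 (5.34 ± 2.10), Cd80 (4.72 ± 3.51), Cd276 (3.94 ± 1.76), Vtcn1 (1.17 ± 1.31) and Pdcd1lg2 (0.517 ± 0.0900 RPKM) came after. Ranges there overlapped from Cd274 through Icosl, from Cd86 through Cd276, and between Vtcn1 and Pdcd1lg2. Cd274 was second in DSS, with a range that overlapped Lgals9, while in water it followed Lgals9 with a range wholly below it. Cd80 stood above Icosl and Cd86 in the DSS order and below both in the water order, but its range overlapped that of Icosl in both groups, and in water also those of Cd86 and Cd276.

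**Figure D3:**
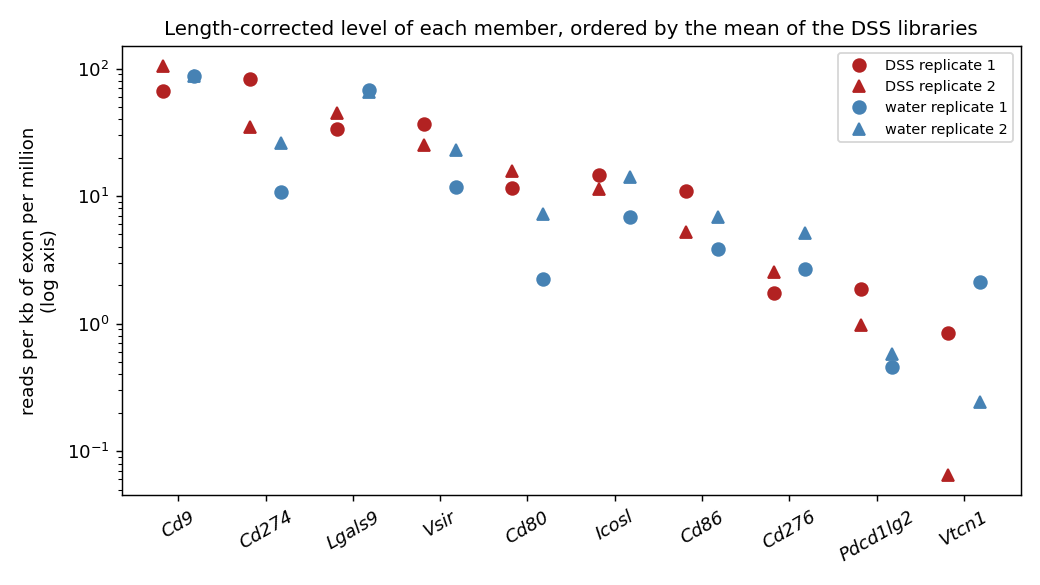
Length-corrected level (RPKM, log axis) of each gene in each library, DSS in red and water in blue, circles for replicate 1 and triangles for replicate 2, ordered by the DSS mean. Cd9 is at 85.3 in DSS and 86.8 in water, and Vtcn1 is the lowest in DSS at 0.458.

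Because leukocyte RNA differed between libraries, the reads of each gene were also set against those of Ptprc in the same library, a ratio that does not depend on scaling. Cd274 had 637 and 393 reads per 1000 Ptprc reads in DSS and 554 and 440 in water. The groups overlapped on this scale, with means that differed by a factor of 1.04 (DSS over water). Cd80 had 92.1 and 184 reads per 1000 Ptprc reads in DSS and 117 and 123 in water, which also overlapped. Vsir had 392 and 397 reads in DSS against 839 and 535 in water, and Cd86 had 85.9 and 60.4 in DSS against 199 and 115 in water, both lower in both DSS libraries. Icosl, Cd276, Cd9 and Lgals9 were likewise lower in both DSS libraries on this scale. That made 6 of 10 genes lower, where 75.5% of the tested genes besides Ptprc were lower, and 0 of 10 higher, where 1.94% were higher. No test was run on these ratios.

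**Figure D4:**
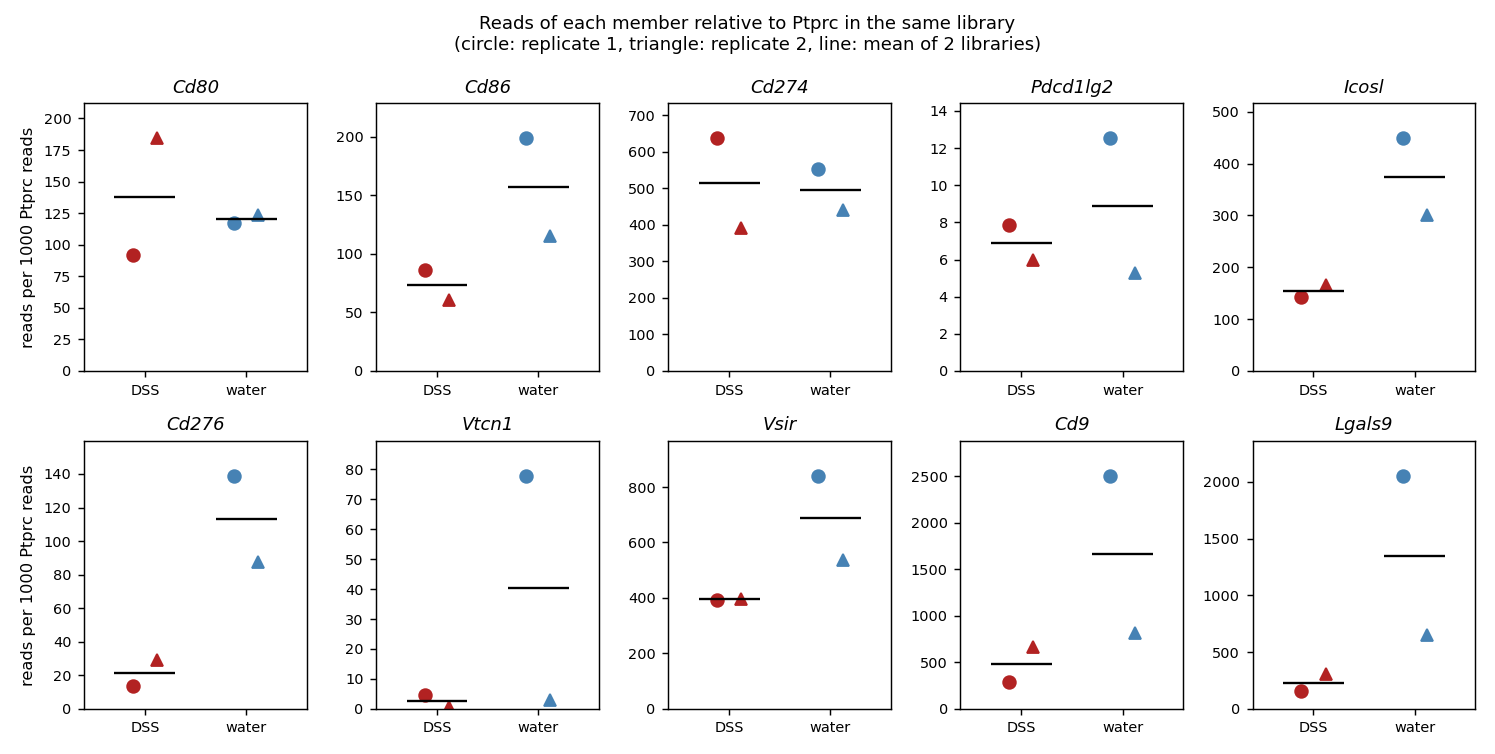
Reads of each gene per 1000 Ptprc reads of the same library, on linear axes from 0 that differ between panels, DSS in red and water in blue, circles for replicate 1, triangles for replicate 2 and a line at the mean. Cd80 and Cd274 overlap between groups, and Cd86, Icosl, Cd276, Vsir, Cd9 and Lgals9 are lower in both DSS libraries.

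Cells known to carry these ligands also differed in their markers. The 8 dendritic cell markers summed to 290.2 and 206 CPM in DSS and 62.6 and 155 CPM in water, and the 11 neutrophil markers to 1295 and 1837 CPM in DSS and 42.1 and 188 CPM in water. The 8 macrophage markers summed to 666 and 832 CPM in DSS and 640.0 and 1657 CPM in water, and the 7 B cell markers to 465 and 198 CPM in DSS and 104 and 261 CPM in water. Dendritic cell, neutrophil and eosinophil sums were higher in both DSS libraries, and in water they were lowest in replicate 1, as Cd80 and Cd274 were. The same held for Ptprc and for the mast cell sum (518.5 and 445.8 CPM in DSS, 41.4 and 143.5 CPM in water). It also held for the T cell sum (132 and 70.5 CPM in DSS, 25.5 and 63.8 CPM in water). Macrophage and B cell sums were lowest in water replicate 1 too, but overlapped between the groups. Water replicate 1 had 0 reads of 4 eosinophil markers (Il5ra, Epx, Ear1 and Ear6), 3 neutrophil markers (Camp, Cxcr2 and Mmp8) and 1 dendritic cell marker (Siglech). DSS replicate 1 had 0 reads of 3 eosinophil markers and water replicate 2 of 2 eosinophil and 2 neutrophil markers. The part of these cell types in the levels of Cd80 and Cd274 was not tested. Cd80 had 1.24 and 0.507 reads per read of Siglecf, Ccr3 and Il5ra together in DSS and 8.75 and 0.981 in water. Cd274 had 8.55 and 1.08 such reads in DSS and 41.4 and 3.50 in water. Water replicate 1, with the fewest reads of Siglecf, Ccr3 and Il5ra (28, 4 and 0), had the highest ratio for both Cd80 and Cd274. Its ratios therefore rest on a very small denominator.

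Genes with the pattern nearest to Cd274 were sought among 10071 genes of at least 10 CPM, by the root mean square difference of centred log2(CPM + 0.5) over the 4 libraries. They were Tnfaip2 (difference 0.12), P2ry10 (0.13), Ctsw (0.13), Il2rb (0.14) and Nr4a3 (0.16). Tnfaip2, a gene induced by tumour necrosis factor, had 677 and 346 CPM in DSS and 103 and 222 CPM in water. Ctsw and Il2rb, known from cytotoxic lymphocytes, had 20.7 and 9.99 CPM and 58.4 and 24.8 CPM in DSS, and 3.08 and 6.80 CPM and 7.74 and 15.04 CPM in water. All 5 shared with Cd274 the highest value in DSS replicate 1, a likeness that their selection by pattern favours. Ptprc and the plasma cell, dendritic cell, B cell, T cell and mast cell marker sums were also highest in that library. In water replicates 1 and 2 the plasma cell sum was 7100 and 6093 CPM, and Cd274 had 39.3 and 95.2 CPM. The part of these cells in the level of Cd274 was not tested. For Cd80, genes among the nearest 5 were Csf2rb2 (0.05), Vcan (0.08), Cd300lb (0.11) and Rin3 (0.11). Csf2rb2, a receptor chain of the interleukin-3 family, had 76.4 and 93.5 CPM in DSS and 14.2 and 45.4 CPM in water. These 4 genes shared with Cd80 the highest value in DSS replicate 2. Over 4 libraries many genes follow 1 pattern closely, so the likeness is a description.

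The receptors that these ligands bind were measured in the same RNA. Of 8 receptor genes tested, edgeR called 0 (3 higher and 2 lower at an unadjusted p under 0.05, against 5.06% and 3.39% of all genes). The median log2 fold change was 1.50, beside -0.01 for all genes, and it was 0.59 without DSS replicate 1. DESeq2 called 3 of them higher, against 1.64% of all genes, and 0 lower. Icos had 35.8 and 11.95 CPM in DSS and 3.38 and 5.05 CPM in water (log2 fold change 2.50, SE 0.59, edgeR adjusted p = 0.427, DESeq2 adjusted p = 0.00187). Ctla4, the inhibitory receptor of CD80 and CD86, had 198 and 85.9 CPM in DSS and 47.8 and 40.9 CPM in water (log2 fold change 1.68, SE 0.45, edgeR adjusted p = 0.471, DESeq2 adjusted p = 0.0147). Selplg, which encodes PSGL-1, a partner of VISTA, had 189.6 and 92.8 CPM in DSS and 39.0 and 56.0 CPM in water (log2 fold change 1.57, SE 0.43, edgeR adjusted p = 0.473, DESeq2 adjusted p = 0.0253). In all of these DSS replicate 1 was the highest library. Without DSS replicate 1 the DESeq2 values of Icos, Ctla4 and Selplg became 1.50, 0.95 and 0.96, and their calls ended (adjusted p = 0.778, 0.852 and 0.911). Without water replicate 1 the calls also ended (adjusted p = 0.126, 0.164 and 0.560), and that of Ctla4 ended without water replicate 2 (adjusted p = 0.135).

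Among the other receptors, the activating receptor gene Cd28 had 105 and 22.1 CPM in DSS and 23 and 24.2 CPM in water, so that DSS replicate 1 alone stood apart, the library that was also highest in plasma cell and T cell markers. Pdcd1, which encodes PD-1, had 70 and 68 reads in DSS and 0 and 42 reads in water. Havcr2, which encodes TIM-3, had 22.6 and 14.6 CPM in DSS and 9.10 and 15.6 CPM in water. Rgmb, the other partner of PD-L2, had 26.5 and 25.4 CPM in DSS and 63.7 and 52.5 CPM in water (log2 fold change -1.16, SE 0.25, edgeR adjusted p = 0.401, DESeq2 adjusted p = 0.0588). Igsf11, a partner of VISTA, had 1.45 and 0.854 CPM in DSS and 2.73 and 4.99 CPM in water. The 8 T cell markers, from cells that carry Icos, Ctla4 and Cd28, summed to 132 and 70.5 CPM in DSS and 25.5 and 63.8 CPM in water, with no marker at 0 in any library. Cd4 made up much of that sum, with 33.3 and 18.3 CPM in DSS and 14.6 and 48.6 CPM in water, and was the only marker of the 8 with a log2 fold change below 0. The other 7 had both DSS libraries above both water libraries, where 20.8% of all genes did. All 7 were higher at an edgeR unadjusted p under 0.05, against 5.06% of all genes. The median log2 fold change of the 8 was 2.48, above that of the receptors, and 1.85 without DSS replicate 1. DESeq2 called 6 of the T cell markers higher and edgeR called 0, against 1.64% and 0% of all genes called higher. With DSS replicate 1 left out DESeq2 called 1 of them, and 2 with water replicate 1 left out. The part of T cell and plasma cell RNA in the receptor levels was not tested.

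**Figure D5:**
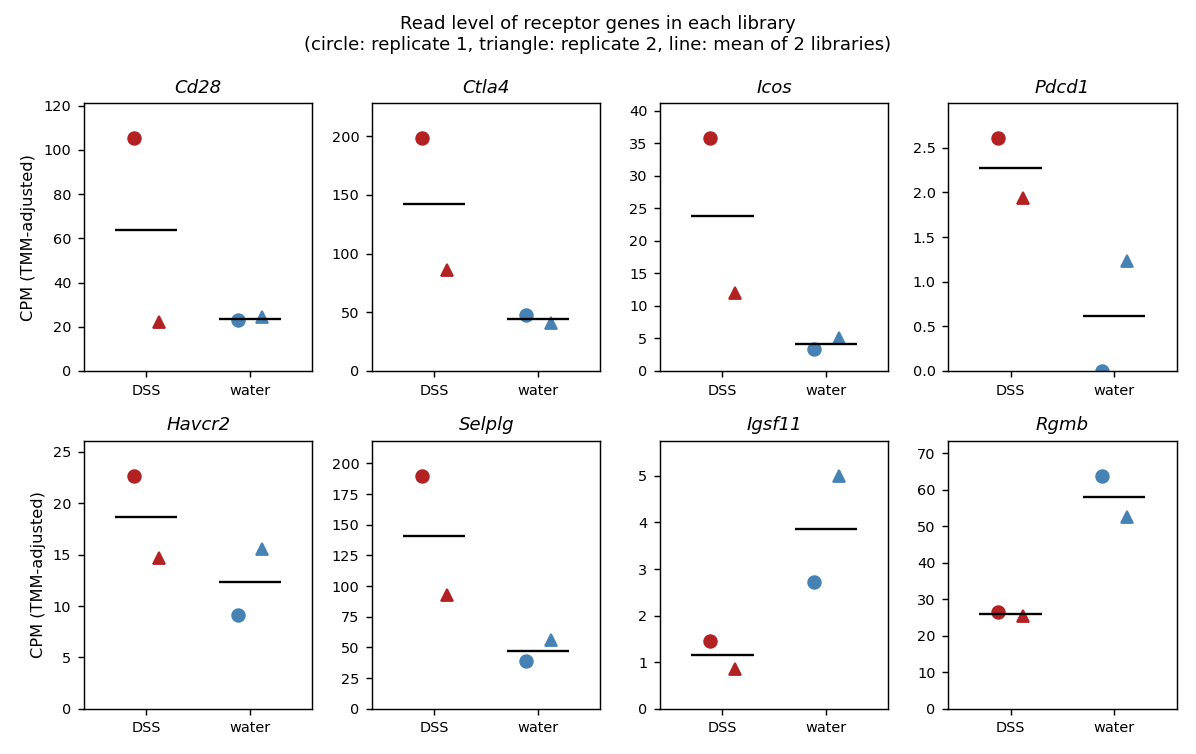
Level of the 8 receptor genes in CPM, on linear axes from 0 that differ between panels, DSS in red and water in blue, circles for replicate 1, triangles for replicate 2 and a line at the mean. Ctla4, Icos, Pdcd1 and Selplg have both DSS libraries above both water libraries, and Igsf11 and Rgmb have both below.

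Interferon-gamma is a known inducer of PD-L1 through JAK kinases, and CMTM6 stabilises PD-L1 at the membrane. Of 11 genes of this route, edgeR and DESeq2 called 0, against 0.016% and 2.53% of all genes, with a median log2 fold change of 0.29. At an edgeR unadjusted p under 0.05, 2 were higher and 0 lower, against 5.06% and 3.39% of all genes. Ifng had 71 and 43 reads in DSS and 16 and 20 reads in water (log2 fold change 1.86, SE 0.80, edgeR adjusted p = 0.626). Irf1, an interferon-induced transcription factor, had 308 and 221 CPM in DSS and 273 and 219.8 CPM in water, and the groups overlapped. Stat3 had 283 and 256 CPM in DSS and 120.0 and 172 CPM in water (log2 fold change 0.89, SE 0.34, edgeR adjusted p = 0.573), with both DSS libraries above both water libraries. Cmtm6 had 102 and 142 CPM in DSS and 91.9 and 108 CPM in water.

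Relatives of the 10 genes gave 0 calls with edgeR and 0 with DESeq2, against 0.016% and 2.53% of all genes. At an edgeR unadjusted p under 0.05, 5.06% of all genes were higher and 3.39% lower, beside which the counts of 0 or 1 in the lists of relatives stand. The 6 tested butyrophilin genes, which resemble the B7 family in sequence, had a median log2 fold change of -0.37, with 2 above 0 and 4 below and none at an edgeR unadjusted p under 0.05. The epithelial Btnl1, Btnl4 and Btnl6, which shape gut intraepithelial T cells, had log2 fold changes of 0.22, -0.57 and -0.18. The 11 tetraspanins and CD9 partners had a median of -0.06, with 0 higher and 1 lower at an edgeR unadjusted p under 0.05. Both DSS libraries were above both water libraries for 3 of the 11, against 20.8% of all genes. These were Cd53, Cd37 and Tspan4, with log2 fold changes of 0.96, 0.95 and 0.70. Both were below for 2 of the 11, against 18.7% of all genes. Cd81, a tetraspanin related to Cd9, had 71.1 and 71.4 CPM in DSS and 112 and 132.5 CPM in water (log2 fold change -0.78, SE 0.28, edgeR adjusted p = 0.544), both DSS libraries below both water libraries, a separation that Cd9 did not show. Of 8 tested galectin genes, 3 were above 0 and 5 below, with a median of -0.18 and 0 higher and 1 lower at an edgeR unadjusted p under 0.05. The gene that was lower was Lgals12, with 46 and 246 reads in DSS and 778 and 391 reads in water (log2 fold change -1.98, SE 0.72, edgeR adjusted p = 0.555, DESeq2 adjusted p = 0.0752), whose groups were farther apart than those of Lgals9. Lgals3bp had 129 and 132 CPM in DSS and 145 and 181 CPM in water, also with both DSS libraries below both water libraries. Of the 8 galectin genes, 2 had this separation, against 18.7% of all genes. In the other direction, 1 had both DSS libraries above both water libraries, against 20.8%. Lgals3 and Lgals4, abundant in colonic epithelium, had log2 fold changes of -0.47 and -0.39 and overlapped between groups.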

How the data were processed

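RNA was measured in 4 libraries, 2 from DSS-treated and 2 from water-treated mice. The authors deposited raw read counts per gene symbol, without normalization. Poly-A RNA was selected, per the labels' protocols, and STAR, HISAT2, featureCounts, HTSeq, DESeq2 and the build mm10 (GRCm38) are named without versions or roles, per the submitters' processing notes. Strandedness and the annotation are not given in the sources used here. Columns were tied to samples by the library names in the labels.

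The filterByExpr step of edgeR 4.0.16 (minimum count 10, minimum total 15) kept 18788 genes, with 99.4% of all counts, and TMM scaled them. DSS was tested against water with the quasi-likelihood test (robust, group as the only term), two-sided, with Benjamini-Hochberg adjustment over all genes. SE is the absolute log2 fold change divided by the square root of F. DESeq2 1.42.0 (Wald test), limma 3.58.1 (voom), other scalings and filters, a replicate block and fits without each library were alternatives. Code was tested on simulated data. Exon lengths and positions are from GENCODE vM21, which matched 92.8% of symbols, and promoters from RefSeq.

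Named genes were the 10 genes, pathway list genes called by either tool or of high level, and the 5 genes nearest in pattern to Cd274 and to Cd80; values of 2 such genes are not reported here. Igsf11, Ifng, Cd81, the Cd80 to Cd86 ratio and others outside that rule were chosen after their values were seen. The genes, lists and motifs were chosen with earlier results of these data known. Whether replicates are separate mice is not stated in the labels, so the p-values reflect library-to-library spread that may be technical. Replicates were not duplicates (chi-square over genes, per degree of freedom, of 385 for DSS and 160 for water). Intervals cover counting error only, at the depth given; between 70.5% and 73.2% of counts of 1 to 10 were even, which counting each mate separately would give; intervals would then be too narrow.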

Additional observations from a re-analysis of the deposited data

How the results depend on the processing

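Of the 10 genes, Cd80, Cd274, Pdcd1lg2, Vsir, Cd276 and Lgals9 kept their direction in all 16 alternatives, and Cd86, Icosl, Cd9 and Vtcn1 each turned sign in 2. The edgeR total of 3 genes over the transcriptome became 1051 without a count filter, 497 with DESeq2, and 0 with limma-voom. Without a count filter 1051 of 27735 tested genes were called. Among them were 2 of the 10 genes (Cd80, log2 fold change 1.54, and Cd274, 1.65), 5 of 8 receptors and 1 galectin. The prior degrees of freedom, 4.08 with the filter, were infinite in that fit. DESeq2 called 3 receptors. Leaving out 1 library gave totals from 3 to 196 genes with edgeR. DESeq2 without 1 library, added after seeing the data, gave 173 and 576 without DSS replicates 1 and 2, and 166 and 826 without water replicates 1 and 2. Over the fits without 1 library 0 to 2 of the 10 genes were called, 0 to 4 receptors, 0 to 1 tetraspanin or partner and 0 to 1 galectin. The edgeR log2 fold change without 1 library ran from 0.90 to 2.63 for Cd80, 0.88 to 2.44 for Cd274, -0.039 to 1.08 for Cd86, -0.16 to 0.92 for Icosl, -0.38 to 0.25 for Cd9 and -4.13 to 0.85 for Vtcn1. With DESeq2 it was 2.17 (without DSS replicate 2) and 2.44 (without water replicate 2) for Cd274, 2.62 (without water replicate 2) for Cd80, -0.027 and 0.26 (without DSS replicate 1) for Cd86 and Cd9, and -0.13 and 0.90 (without water replicate 1) for Icosl and Vtcn1. The causes were not tested.

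The labels do not say that equal replicate numbers mark a pairing, and the correlation of same-numbered deviations was -0.09. With a replicate block edgeR called 0 genes, and none of the 10 changed direction. With 2 libraries a group, differences of the size seen for Cd80 and Cd274 did not pass the test at this spread. Counting intervals overlapped between the closest DSS and water libraries of Pdcd1lg2, whereas those of Vtcn1 lay apart within each group.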
